A study of Homo sapiens with 9 samples.

Results

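The genes of the epidermal growth factor (EGF) system described here are 10 genes in the human kidney tubule line HK-2. They are the receptors EGFR, ERBB2 and ERBB3, the ligands HBEGF, AREG, EREG, TGFA, EPGN and BTC, and the receptor inhibitor ERRFI1. They were taken by gene symbol, and all 10 were found among the 62703 genes listed. Of the 10, 9 passed the filter on low counts, which kept 18267 genes for testing. EPGN did not pass and is given as counts.

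RNA was sequenced from HK-2, a human papillomavirus-transformed line labelled as renal cortex, in 3 groups of 3 libraries that address the response to a tubule toxin and the effect of MYDGF, a secreted growth factor, on it. The MYDGF plus aristolochic acid group (replicates 1, 3 and 4) was given an adenovirus carrying MYDGF and 5 µg/ml of aristolochic acid for 48 h. The aristolochic acid group (replicates 1, 4 and 6) was given 5 µg/ml of this plant toxin, which forms DNA adducts in tubule cells, for 48 h. The untreated group (replicates 1, 2 and 3) had no toxin. All groups are labelled wild type and carry the viral transformation, and the protocols give 12 h without serum and culture in 5% serum for all of them. No control vector is named for the aristolochic acid or untreated cells, so MYDGF and the vector cannot be told apart, nor can the toxin and a solvent. The treatment text of 4 libraries (MYDGF plus aristolochic acid 3 and 4, untreated 2 and 3) reads HK-3 or HK-4 while the cell line entry reads HK-2. Nothing in the labels says that replicates were separate cultures, so each p-value reflects the spread among these libraries alone, and that spread may be technical.

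EGF ligands are made as membrane-anchored precursors, and metalloproteases of the ADAM family cut them loose to act on the same or neighbouring cells. Ligand binding makes EGFR pair with itself or with ERBB2 or ERBB3, which switches on the RAS to ERK and the PI3K to AKT cascades. ERBB2 binds no known ligand and serves as a partner, and ERBB3 has a weak kinase and couples strongly to PI3K once paired. ERRFI1 (also called MIG6) binds the kinase domain of active EGFR and ERBB2 and holds it in check, and its gene is itself turned on by EGFR signalling. In kidney tubules EGFR activity is known for driving repair after acute injury, and in mice sustained activity is linked to fibrosis.

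The libraries held 10876572 to 14254786 counts. Genes with at least 1 count numbered 27818 to 28762 with MYDGF plus aristolochic acid, 28527 to 30637 with aristolochic acid and 25852 to 26012 in untreated cells, and the 10 most read genes took 4.97 to 5.20%, 5.03 to 5.39% and 6.53 to 6.82% of the counts. The part of this difference in the results was not tested. Levels are given as CPM, counts scaled to a common library total, after TMM scaling, which evens out library composition. MYDGF itself stood at 663, 510.2 and 599 CPM in the MYDGF plus aristolochic acid libraries and at 105, 74.2 and 90.4 CPM in the aristolochic acid libraries, against 125, 131 and 123 CPM in the untreated ones. Of 6 epithelial markers, 5 exceeded 1 CPM in every untreated library, led by the keratins KRT8 and KRT18. The proximal tubule markers were weak: 4 of 8 exceeded 1 CPM in every untreated library, and the endocytic receptor LRP2 stayed at or below 0.309 CPM and the phosphate transporter SLC34A1 at or below 0.232 CPM in all 9. Marker sums moved with the groups: the epithelial genes summed to 1390 to 1413 CPM with MYDGF plus aristolochic acid, 1576 to 1711 CPM with aristolochic acid and 1080 to 1121 CPM in untreated cells. KRT8 and KRT18 made up most of that sum, and the adhesion gene CDH1 went the other way, with 70.5 to 76.2, 40.5 to 52.8 and 96.9 to 106 CPM in that order. The proximal tubule genes summed to 17.5 to 20.5, 22.6 to 33.8 and 12.5 to 13.1 CPM, while SLC5A2 among them went the other way, with 10, 7 and 18 counts in all. The 4 endothelial genes summed to 3.59 to 4.14 CPM with MYDGF plus aristolochic acid, 6.56 to 12.4 CPM with aristolochic acid and 0.984 to 1.26 CPM in untreated cells. Most of the higher endothelial sum with aristolochic acid came from PECAM1, with 85, 289 and 22 counts in all, while CDH5 had 51, 25 and 18 and KDR had 2 in each group. Likewise, 4 leukocyte genes summed to 2.73 to 4.14, 4.78 to 9.12 and 2.22 to 3.03 CPM (CD3E at 0 throughout). Most of the higher sum with aristolochic acid came from CD79A, with 62, 205 and 9 counts in all, while CD14 had 54, 51 and 90. Further, 6 genes of distal nephron and podocytes summed to 5.15 to 7.05, 9.72 to 15.5 and 2.77 to 3.57 CPM (UMOD at 0 throughout). Nearly all of that sum came from SLC12A3, with 120, 204 and 6 counts in all, and NPHS1, with 110, 264 and 114. The 5 fibroblast genes summed to 13.0 to 15.1, 8.28 to 14.3 and 10.2 to 12.8 CPM. The part of these genes in the results was not tested. In bulk RNA, fewer cells of a type and less RNA per cell cannot be told apart.

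In aristolochic acid cells against untreated cells, EGFR, HBEGF, AREG, EREG, TGFA and ERRFI1 rose and ERBB2 and ERBB3 fell, while BTC did not pass the test. That is 8 of the 9 members tested, beside 59% of all genes tested, at an edgeR adjusted p under 0.05. The 6 that rose stand beside 29.7% of all genes called higher, and the 2 that fell beside 29.3% called lower. All 9 had groups that did not overlap, beside 65.9% of all genes. The median log2 fold change of the 9 was 0.61, against -0.012 over all genes tested. When MYDGF plus aristolochic acid was set against aristolochic acid alone, ERBB3 and EREG rose and HBEGF fell. These 3 of 9 are a share near the 29.4% of all genes called (14.7% higher and 14.7% lower), and the median was 0.089 against 0.010 over all genes. The groups did not overlap for 4 of the 9, 3 higher and 1 lower, beside 44.3% of all genes. When MYDGF plus aristolochic acid was set against untreated cells, EGFR, HBEGF, AREG, EREG, TGFA and ERRFI1 rose and ERBB2 and ERBB3 fell, 6 higher and 2 lower beside 26.8% and 24.3% of all genes (51.1% in either direction). These 8 were also the members whose groups did not overlap, beside 63.9% of all genes. The 3 comparisons share libraries and are not independent.

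**Figure D1:**
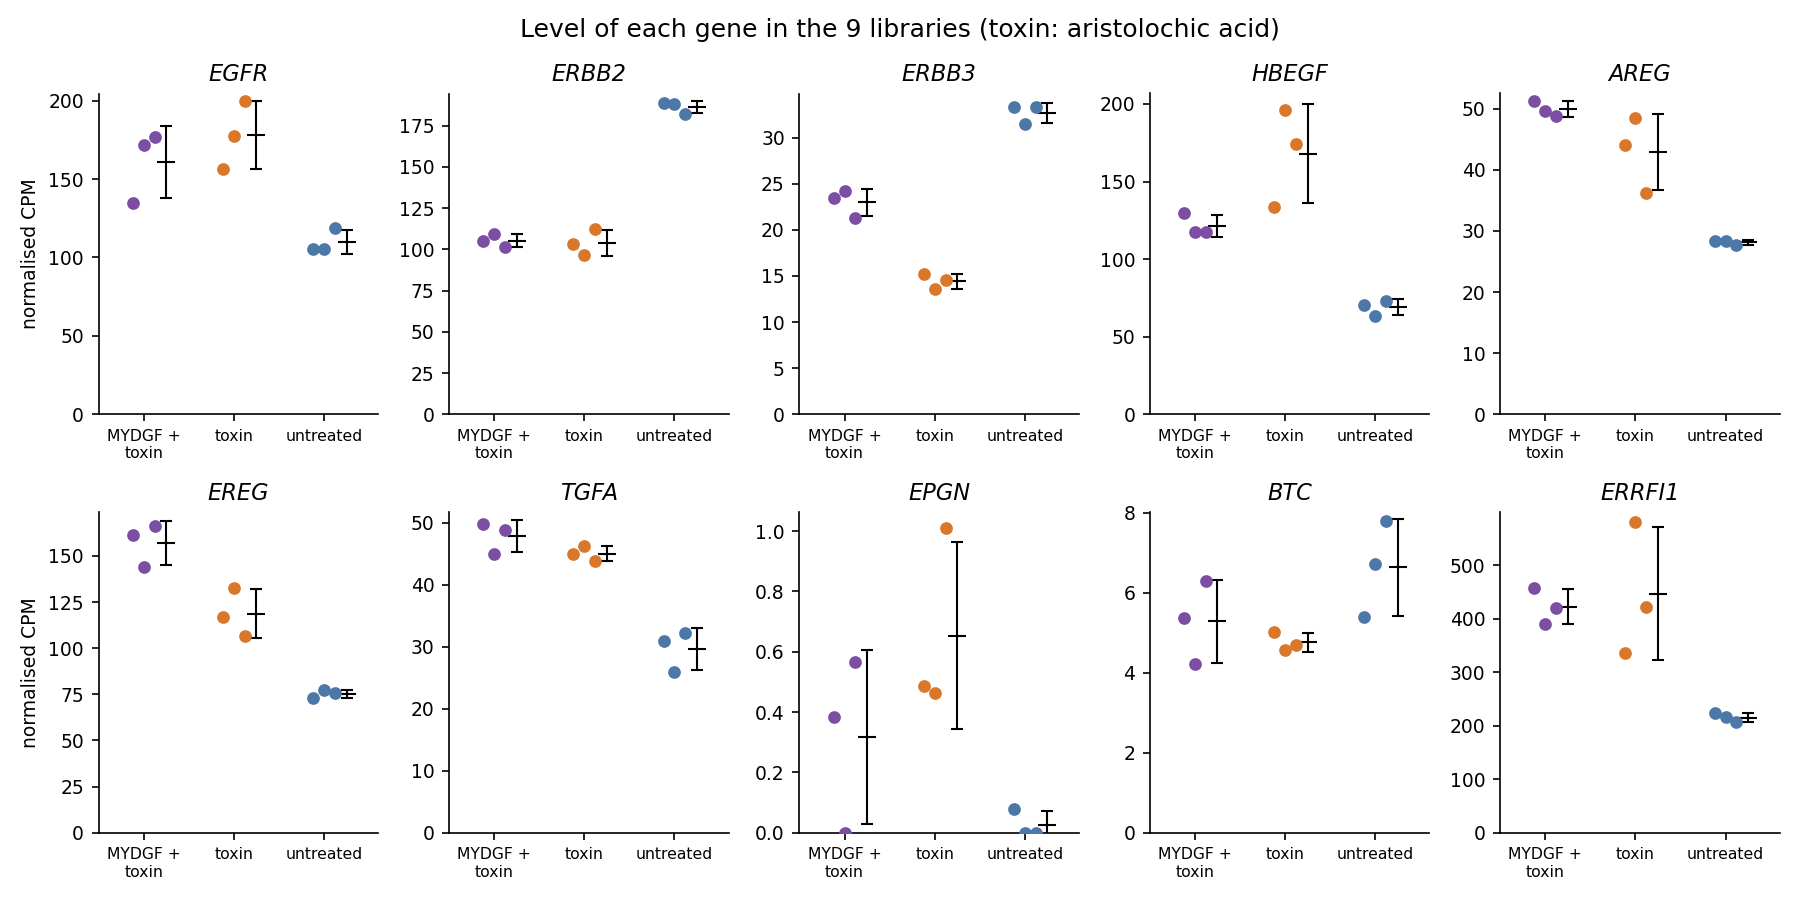
Normalised CPM of each of the 10 genes (vertical axis, linear and starting at 0, with its own range for each gene) in the 9 libraries; points are libraries, and the horizontal line and bar beside them are the mean and SD of 3 libraries. HBEGF was highest in the aristolochic acid libraries, EREG was highest in the MYDGF plus aristolochic acid libraries, ERBB3 was lowest with aristolochic acid, and EPGN stayed near 1 CPM or below (its untreated bar is cut at 0).

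EGFR is the receptor that all 6 ligands bind (ENSG00000146648, GRCh38 chromosome 7, 55019017 to 55211628). It stood at 135, 172 and 177 CPM in the MYDGF plus aristolochic acid libraries, 156, 178 and 199.7 CPM in the aristolochic acid libraries and 105, 106 and 119 CPM in the untreated libraries. Both toxin groups lay wholly above the untreated group and overlapped each other. The rise with aristolochic acid over untreated was 1.62-fold, a log2 fold change of 0.70 (SE 0.122, adjusted p = 0.000966). The rise with MYDGF plus aristolochic acid over untreated was 1.47-fold (log2 0.55, SE 0.122, adjusted p = 0.00458). Between the toxin groups the log2 fold change of EGFR was -0.14 (SE 0.121, adjusted p = 0.409), which did not pass the test.

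ERBB2, the partner receptor without a ligand, moved the other way (ENSG00000141736, chromosome 17, 39687914 to 39730426). Its level was 105, 109 and 101 CPM with MYDGF plus aristolochic acid, 103, 96.6 and 112 CPM with aristolochic acid, and 189, 188 and 182 CPM in untreated cells. The lowest untreated library was far above the highest toxin library, and the toxin groups overlapped. ERBB2 fell by 0.84 on the log2 scale with aristolochic acid against untreated (SE 0.0686, adjusted p = 1.6e-05) and by 0.82 with MYDGF plus aristolochic acid against untreated (SE 0.0685, adjusted p = 2.51e-05). The difference between MYDGF plus aristolochic acid and aristolochic acid was 0.017 (SE 0.0685, adjusted p = 0.877), and its sign changed with the scaling. On the opposite strand PGAP3 and MIEN1 overlap the ERBB2 locus, PGAP3 with 93 to 271 counts and MIEN1 with 116 to 280 counts in a library, against 1221 to 2405 counts for ERBB2. Both also fell with aristolochic acid against untreated, PGAP3 by 1.14 (adjusted p = 0.000135) and MIEN1 by 0.71 on the log2 scale (adjusted p = 0.0106). The strand setting of the counting is not given, so reads of the shared stretch cannot be assigned to one of them.

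ERBB3, the receptor with a weak kinase that couples to PI3K, had no overlap between its 3 groups (ENSG00000065361, chromosome 12, 56076799 to 56103505). Its level was 23.4, 24.2 and 21.3 CPM with MYDGF plus aristolochic acid, 15.2, 13.6 and 14.5 CPM with aristolochic acid, and 33.4, 31.5 and 33.3 CPM in untreated cells. The MYDGF plus aristolochic acid libraries lay between the other two groups. ERBB3 fell by 1.18 on the log2 scale with aristolochic acid against untreated (SE 0.0907, adjusted p = 1.22e-05), to 0.442 of the untreated level. It was 1.59-fold higher with MYDGF plus aristolochic acid than with aristolochic acid (log2 0.67, SE 0.0908, adjusted p = 0.00157). Against untreated cells it still fell by 0.51 in the MYDGF plus aristolochic acid group (SE 0.0884, adjusted p = 0.00127).

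The ligands fall into those that rose with the toxin (HBEGF, AREG, EREG and TGFA), the weakly read EPGN, and BTC. HBEGF, heparin-binding EGF-like growth factor, binds EGFR and ERBB4, and its precursor is also the cell-surface receptor for diphtheria toxin (ENSG00000113070, chromosome 5, 140332843 to 140346603). It stood at 129, 117 and 117 CPM with MYDGF plus aristolochic acid, 133, 196 and 174 CPM with aristolochic acid, and 70.4, 63.1 and 73.1 CPM in untreated cells. The groups did not overlap, although the lowest aristolochic acid library (replicate 1) was close to the highest MYDGF plus aristolochic acid library. HBEGF had the largest rise among the 9 members with aristolochic acid over untreated, 2.44-fold (log2 1.29, SE 0.132, adjusted p = 4.77e-05). It fell by 0.47 with MYDGF plus aristolochic acid against aristolochic acid (SE 0.129, adjusted p = 0.0244), and over untreated it remained 1.76-fold higher (log2 0.82, SE 0.131, adjusted p = 0.000811). The fall of HBEGF against aristolochic acid missed the threshold when any of 4 libraries was left out: without aristolochic acid 4 it was -0.34 (adjusted p = 0.0765), without aristolochic acid 6 it was -0.45 (adjusted p = 0.0668), without MYDGF plus aristolochic acid 3 it was -0.43 (adjusted p = 0.079) and without MYDGF plus aristolochic acid 4 it was -0.45 (adjusted p = 0.0704).

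EREG encodes epiregulin, a ligand of EGFR and ERBB4 with low affinity and long-lasting signalling (ENSG00000124882, chromosome 4, 74365145 to 74388749). Its level was 161, 144 and 166 CPM with MYDGF plus aristolochic acid, 117, 133 and 106 CPM with aristolochic acid, and 72.9, 77.1 and 75.7 CPM in untreated cells. The groups did not overlap and formed steps, with the MYDGF plus aristolochic acid libraries highest. EREG rose 1.58-fold with aristolochic acid over untreated (log2 0.66, SE 0.0913, adjusted p = 0.000251). It rose a further 1.32-fold with MYDGF plus aristolochic acid over aristolochic acid (log2 0.40, SE 0.0904, adjusted p = 0.0106), and by 2.09-fold over untreated (log2 1.06, SE 0.0916, adjusted p = 2.92e-05).

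AREG encodes amphiregulin, an EGFR ligand, and lies next to EREG (ENSG00000109321, chromosome 4, 74445136 to 74455005). It stood at 51.3, 49.7 and 48.8 CPM with MYDGF plus aristolochic acid, 44.1, 48.5 and 36.2 CPM with aristolochic acid, and 28.4, 28.4 and 27.7 CPM in untreated cells. Both toxin groups were above every untreated library, and each MYDGF plus aristolochic acid library was above each aristolochic acid library although the highest aristolochic acid library (replicate 4) came within 0.306 CPM of the lowest of them. AREG rose 1.53-fold with aristolochic acid over untreated (log2 0.61, SE 0.103, adjusted p = 0.000777) and 1.77-fold with MYDGF plus aristolochic acid over untreated (log2 0.83, SE 0.103, adjusted p = 0.000206). Between MYDGF plus aristolochic acid and aristolochic acid its log2 fold change was 0.22 (SE 0.102, adjusted p = 0.14) and did not pass the test.

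TGFA encodes transforming growth factor alpha, a high-affinity EGFR ligand (ENSG00000163235, chromosome 2, 70447284 to 70554193). It stood at 49.9, 44.9 and 48.8 CPM with MYDGF plus aristolochic acid, 44.9, 46.2 and 43.8 CPM with aristolochic acid, and 31.0, 25.8 and 32.2 CPM in untreated cells. The toxin groups overlapped each other and lay above the untreated group. TGFA rose 1.52-fold with aristolochic acid over untreated (log2 0.60, SE 0.0943, adjusted p = 0.00051) and 1.61-fold with MYDGF plus aristolochic acid over untreated (log2 0.69, SE 0.0941, adjusted p = 0.000335). Between the toxin groups the log2 fold change was 0.089 (SE 0.0929, adjusted p = 0.506), which did not pass.

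BTC encodes betacellulin, a ligand of EGFR and ERBB4, and had the fewest counts of the tested members (ENSG00000174808, chromosome 4, 74744759 to 74794523). It stood at 5.36, 4.22 and 6.29 CPM with MYDGF plus aristolochic acid, 5.02, 4.56 and 4.69 CPM with aristolochic acid, and 5.39, 6.71 and 7.79 CPM in untreated cells, from 51 to 103 counts a library. Every aristolochic acid library was below every untreated one, and the MYDGF plus aristolochic acid libraries overlapped both groups. The log2 fold change with aristolochic acid over untreated was -0.48 (SE 0.192, adjusted p = 0.056), just outside the threshold. Without untreated 1 it was -0.62 (adjusted p = 0.0274), and without MYDGF plus aristolochic acid 3, a library of neither group but part of the shared fit, it was -0.47 (adjusted p = 0.0442). For BTC with MYDGF plus aristolochic acid the log2 fold change was 0.15 over aristolochic acid (SE 0.194, adjusted p = 0.587) and -0.32 over untreated (SE 0.19, adjusted p = 0.181).

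EPGN encodes epigen, a low-affinity EGFR ligand (ENSG00000182585, chromosome 4, 74308470 to 74316789). It had 5, 0 and 8 counts in the MYDGF plus aristolochic acid libraries, 6, 6 and 11 counts in the aristolochic acid libraries, and 1, 0 and 0 counts in the untreated libraries. The aristolochic acid libraries were above every untreated library, and the MYDGF plus aristolochic acid libraries spanned both. Summed over groups the ratio of CPM was 24.0 for aristolochic acid over untreated, with an exact 95% interval of 3.90 to 989 that covers counting error only, and 12.3 (1.84 to 521) for MYDGF plus aristolochic acid over untreated. For MYDGF plus aristolochic acid over aristolochic acid the ratio was 0.511, with an interval of 0.238 to 1.05 that includes no difference. In a fit without the filter on low counts, over 37792 genes, the log2 fold change of EPGN was 4.15 with aristolochic acid over untreated (adjusted p = 0.0183) and 3.18 with MYDGF plus aristolochic acid over untreated (adjusted p = 0.106), which did not pass, and -0.97 between the toxin groups (adjusted p = 0.485), which did not pass either.

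**Figure D2:**
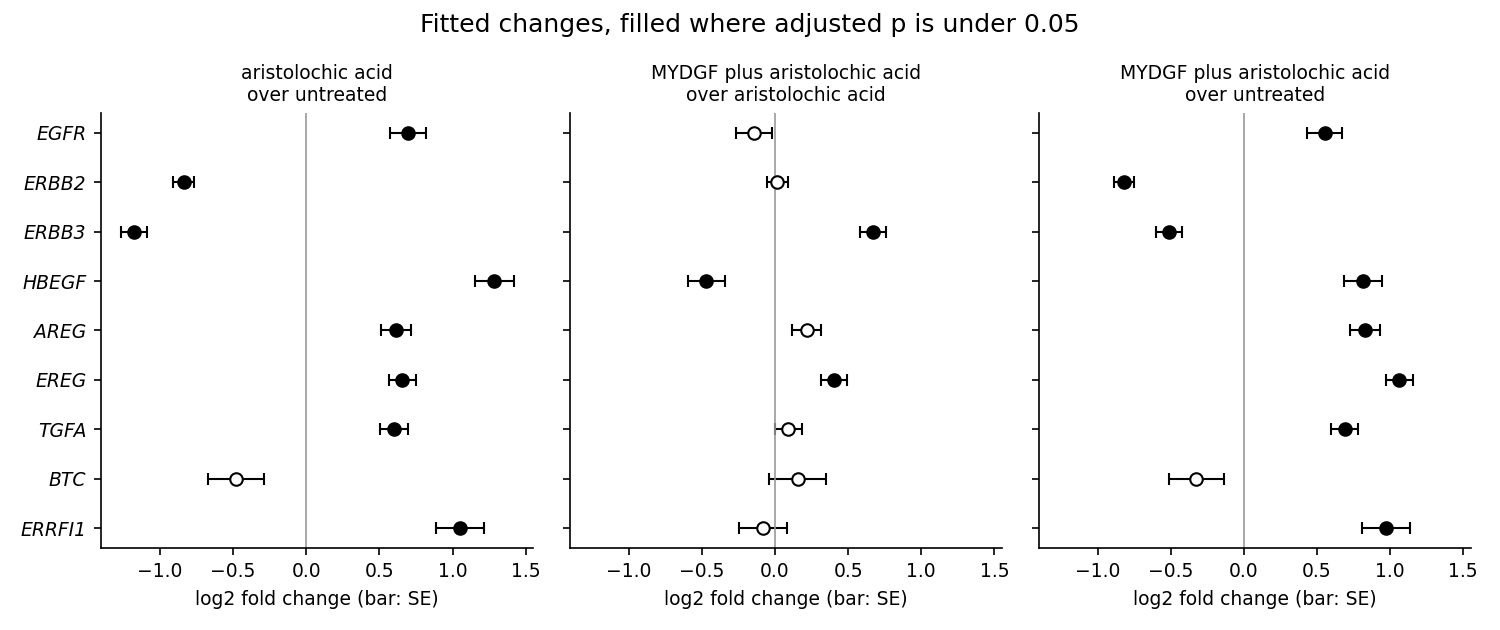
Log2 fold changes (horizontal axis) of the 9 tested genes in the 3 comparisons, with bars of 1 SE from the fit; filled points have an adjusted p under 0.05. The left and right panels each show 6 filled points above 0 and ERBB2 and ERBB3 filled below it, and in the middle panel ERBB3 at 0.67, EREG at 0.40 and HBEGF at -0.47 are the filled points.

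Of the 6 ligand genes, 4 lie on chromosome 4 in the order EPGN, EREG, AREG and BTC. GENCODE 29 puts EPGN and EREG 49.8 kb apart, EREG and AREG 56.4 kb apart, and AREG and BTC 289.75 kb apart. EPGN, EREG and AREG are read from the plus strand and BTC from the minus strand. The 3 genes on the plus strand had higher levels in the aristolochic acid libraries than in any untreated library, and BTC had lower ones. These 2 groups also did not overlap for 65.9% of all genes tested. BTC did not pass the test (edgeR adjusted p = 0.056), and EPGN, below the filter, had 23 counts with aristolochic acid against 1 in untreated cells. Upstream of EPGN on its strand the nearest gene with at least 1 CPM in untreated cells was MTHFD2L, a mitochondrial folate enzyme gene that ends 5.374 kb away. MTHFD2L had a log2 fold change of 0.16 with aristolochic acid over untreated (adjusted p = 0.285), which did not pass the test.

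RefSeq promoter windows of 300 bases, from 250 before to 50 after the start on GRCh38.p14, were matched by symbol for 9 of the 10 genes, all but ERBB3. HBEGF, AREG and EREG rose with aristolochic acid against untreated, as did TGFA. With MYDGF plus aristolochic acid against aristolochic acid alone, HBEGF fell and EREG rose, while AREG and TGFA did not pass the test. Only the windows of HBEGF, AREG and EREG are printed. Each is written 5′ to 3′ on the gene's strand, with capitals marking matches to the motifs searched on both strands: AP-1 (TGANTCA), CRE (TGACGTCA), NF-kB, ATF4 (TGATGCAA) and SP1 (GGGCGG).
HBEGF, chr5:140346554-140346853, minus strand: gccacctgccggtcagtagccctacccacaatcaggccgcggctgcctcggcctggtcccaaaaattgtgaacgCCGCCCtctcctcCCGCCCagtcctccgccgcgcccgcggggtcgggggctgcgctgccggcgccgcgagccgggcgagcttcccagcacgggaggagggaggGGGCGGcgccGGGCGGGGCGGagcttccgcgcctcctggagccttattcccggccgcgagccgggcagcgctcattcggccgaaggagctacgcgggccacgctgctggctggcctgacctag
AREG, chr4:74444886-74445185, plus strand: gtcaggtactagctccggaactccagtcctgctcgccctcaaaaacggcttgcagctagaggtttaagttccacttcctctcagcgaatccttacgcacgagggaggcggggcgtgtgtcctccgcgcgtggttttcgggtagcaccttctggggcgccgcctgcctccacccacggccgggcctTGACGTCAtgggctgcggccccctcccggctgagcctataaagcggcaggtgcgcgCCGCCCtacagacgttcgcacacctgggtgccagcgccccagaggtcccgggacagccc
EREG, chr4:74364895-74365194, plus strand: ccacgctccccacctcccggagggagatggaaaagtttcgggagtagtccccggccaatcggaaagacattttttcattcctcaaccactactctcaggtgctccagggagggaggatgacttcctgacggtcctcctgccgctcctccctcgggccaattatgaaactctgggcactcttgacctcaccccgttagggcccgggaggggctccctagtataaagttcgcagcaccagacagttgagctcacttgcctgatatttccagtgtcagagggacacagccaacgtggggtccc
The HBEGF window held 5 SP1 matches, at -176, -163, -73, -63 and -58 from the start, the last pair sharing a letter, and was 75.0% G or C. The AREG window held a CRE match at -65 and an SP1 match at -9, with 66.3% G or C. The EREG window held none of the 5 motifs and was 57.7% G or C, against a median of 58.7% over all 35116 windows. An SP1 match was present in 45.0% of all windows, an AP-1 match in 7.71%, a CRE match in 1.85%, an ATF4 match in 0.866% and an NF-kB match in 0.191%. Among the other matched members, ERBB2 had an AP-1 match at -222, TGFA had 4 SP1 matches, EGFR had 3, and BTC and ERRFI1 had 1 each. The ERBB2 window (39687844 to 39688143) lies at the 5′ end of its locus. A single window was searched for each gene, so other starts were not covered. A match is a run of letters and not a site shown to be used.

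ERRFI1, the inhibitor of the EGFR and ERBB2 kinase, had the highest level per kb of exon of the 10 genes in every group (ENSG00000116285, chromosome 1, 8004404 to 8026309). It stood at 457, 391 and 419.6 CPM with MYDGF plus aristolochic acid, 337, 581 and 423 CPM with aristolochic acid, and 223, 216 and 207 CPM in untreated cells. Every toxin library was above every untreated one, and the aristolochic acid libraries were the most spread, with replicate 4 far above the other two. ERRFI1 rose 2.08-fold with aristolochic acid over untreated (log2 1.05, SE 0.165, adjusted p = 0.000509) and 1.96-fold with MYDGF plus aristolochic acid over untreated (log2 0.97, SE 0.165, adjusted p = 0.00112). Between MYDGF plus aristolochic acid and aristolochic acid the log2 fold change was -0.080 (SE 0.163, adjusted p = 0.747), and without aristolochic acid 4 it was 0.15. An antisense gene that overlaps ERRFI1, AL034417.4, had 0 to 37 counts a library against 2573 to 7518 for ERRFI1. It also rose over untreated, by 4.92 on the log2 scale with aristolochic acid (edgeR adjusted p = 4.7e-05) and by 3.56 with MYDGF plus aristolochic acid. Without the strand setting, reads of the shared stretch cannot be assigned to one of the 2 genes.

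Ratios within a library do not depend on how libraries are scaled, and are given for pairs of members chosen with their fold changes known, as a description. The exact permutation test of 3 against 3 libraries cannot reach the 0.05 threshold for any of them. EGFR counts per ERBB2 count were 1.28, 1.57 and 1.75 with MYDGF plus aristolochic acid, 1.51, 1.84 and 1.78 with aristolochic acid, and 0.558, 0.561 and 0.652 in untreated cells. Every toxin library thus held more EGFR than ERBB2 counts, and every untreated library fewer. Counts are not scaled by gene length, so a ratio of 1 does not mark equal levels. The ratio was 2.89-fold higher with aristolochic acid than in untreated cells and 2.58-fold higher with MYDGF plus aristolochic acid than in untreated cells (exact permutation p = 0.1 for each, two-sided, the smallest that 3 against 3 libraries allow, and 0.133 adjusted over the 12 ratio tests). ERBB3 counts per ERBB2 count were 0.223, 0.221 and 0.211 with MYDGF plus aristolochic acid, 0.147, 0.141 and 0.129 with aristolochic acid, and 0.177, 0.167 and 0.183 in untreated cells. Here the MYDGF plus aristolochic acid libraries were above the untreated ones and the aristolochic acid libraries below them, with no overlap. The ratio with MYDGF plus aristolochic acid was 1.57 times that with aristolochic acid (exact permutation p = 0.1, adjusted 0.133).

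Among the ligands, EREG was set against HBEGF. EREG counts per HBEGF count were 1.25, 1.23 and 1.42 with MYDGF plus aristolochic acid, 0.877, 0.676 and 0.610 with aristolochic acid, and 1.04, 1.22 and 1.04 in untreated cells. The aristolochic acid libraries held fewer EREG than HBEGF counts, and all 6 other libraries held more. Per kb of merged exons, HBEGF was above EREG in every library. The ratio was 1.82-fold higher with MYDGF plus aristolochic acid than with aristolochic acid, 0.651 of the untreated ratio with aristolochic acid, and 1.18-fold above untreated with MYDGF plus aristolochic acid (exact permutation p = 0.1 for each, adjusted 0.133). ERRFI1 counts per EGFR count were 3.40, 2.28 and 2.37 with MYDGF plus aristolochic acid, 2.15, 3.27 and 2.12 with aristolochic acid, and 2.12, 2.05 and 1.75 in untreated cells. The aristolochic acid libraries, with replicate 4 high and the others near the untreated values, gave a ratio over untreated of 1.25 (exact permutation p = 0.2, adjusted 0.24). Every MYDGF plus aristolochic acid library was above every untreated one, at 1.34-fold (exact permutation p = 0.1, the smallest possible, adjusted 0.133). The MYDGF plus aristolochic acid and aristolochic acid libraries overlapped.

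**Figure D3:**
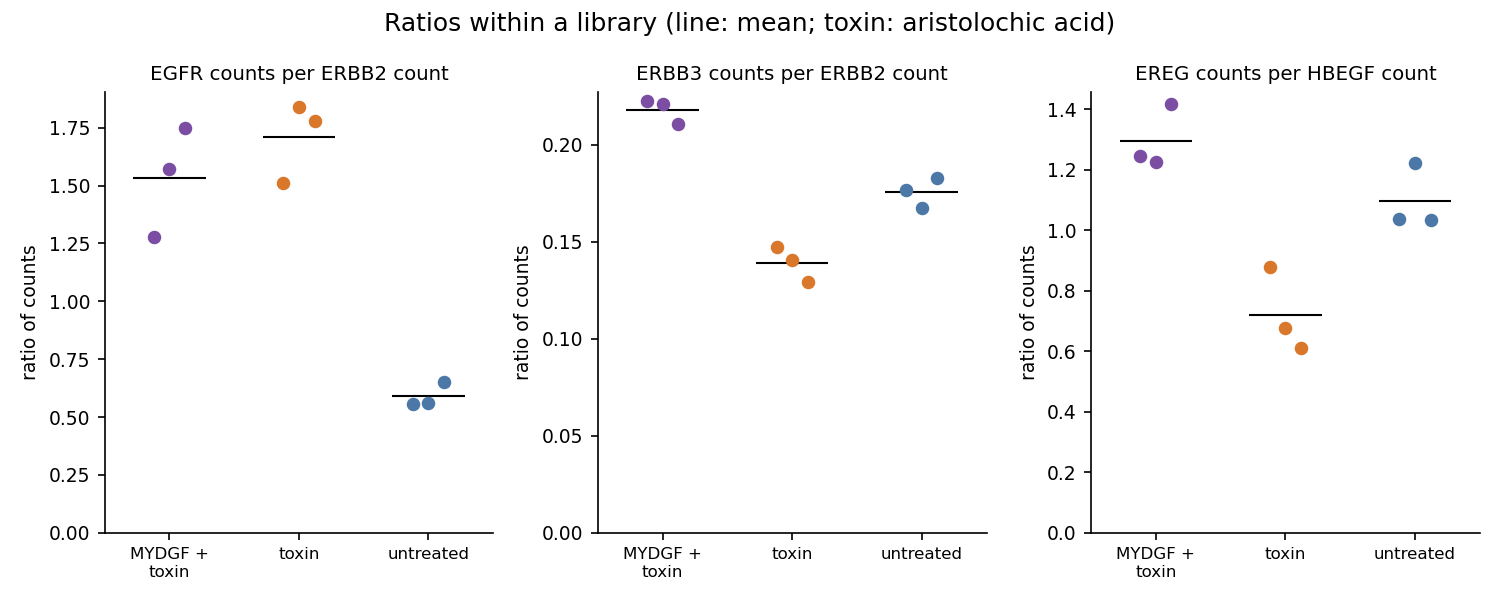
Ratio of raw counts of a gene pair within each library (vertical axes, linear from 0), with points for libraries and a line at the mean of 3. EGFR per ERBB2 lies above 1 in all 6 toxin libraries and below 1 in the untreated ones, and both ERBB3 per ERBB2 and EREG per HBEGF are lowest in the aristolochic acid libraries. Counts are not scaled by gene length, so 1 does not mark equal levels.

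Levels of different genes were compared as CPM per kb of merged exons in GENCODE 29, because the gene lengths implied by the authors' FPKM values ran from 1.05 to 3.53 times that length and for ERBB3 exceeded the span of the gene. ERRFI1 led with 101, 107 and 51.4 CPM per kb on average in MYDGF plus aristolochic acid, aristolochic acid and untreated cells. In the MYDGF plus aristolochic acid group it was followed by HBEGF (40.2), AREG (30.3), EREG (27.5), EGFR (12.9), ERBB2 (10.2), TGFA (9.64), ERBB3 (2.54), BTC (1.88) and EPGN (0.174 CPM per kb). In that order only the neighbours ERBB2 and TGFA had ranges that overlapped. In the aristolochic acid group the order was the same down to TGFA, with HBEGF at 55.6, AREG at 26.1, EREG at 20.8, EGFR at 14.2, ERBB2 at 10.1 and TGFA at 9.06 CPM per kb. BTC (1.69) and ERBB3 (1.60) then overlapped, as did AREG and EREG. In untreated cells the order was ERRFI1, HBEGF (22.8), ERBB2 (18.0), AREG (17.1), EREG (13.2), EGFR (8.77), TGFA (5.98), ERBB3 (3.62), BTC (2.35) and EPGN (0.0146 CPM per kb), with no neighbours overlapping. The place of ERBB2 depended on the length used: per kb of the longest coding transcript it ranked above EGFR in all groups, with overlapping ranges in the aristolochic acid group, and above HBEGF in untreated cells.

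On the merged exon scale, EGFR made up 45.7 to 53.7% of the summed level of EGFR, ERBB2 and ERBB3 with MYDGF plus aristolochic acid, 51.6 to 56.6% with aristolochic acid and 27.7 to 30.8% in untreated cells. ERBB2 made up 37.3 to 43.3%, 37.3 to 41.4% and 57.3 to 60.5% in the same order of groups. ERBB3 made up 8.98 to 11.0%, 5.65 to 6.96% and 11.6 to 12.2%, lowest with aristolochic acid. The summed receptor level itself was 23.5 to 27.0 CPM per kb with MYDGF plus aristolochic acid, 24.2 to 28.4 with aristolochic acid and 30.1 to 30.8 in untreated cells. The 6 ligands summed to 105 to 114 CPM per kb with MYDGF plus aristolochic acid, 102.5 to 129 with aristolochic acid and 59.2 to 63.5 in untreated cells, so the toxin groups overlapped and both lay above untreated. HBEGF gave 35.4 to 37.5% of the ligand sum with MYDGF plus aristolochic acid, 43.1 to 52.8% with aristolochic acid and 35.3 to 38.1% in untreated cells, and EREG gave 24.0 to 26.5%, 17.0 to 20.0% and 20.7 to 22.8%. Per kb of the longest coding transcript, ERBB2 averaged above EGFR in each group. The values were 22.0 against 16.4 with MYDGF plus aristolochic acid, 21.7 against 18.1 with aristolochic acid and 38.9 against 11.2 in untreated cells. Which receptor held the larger share in the toxin groups thus depends on the length used.

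Of the remaining receptor and 5 ligands of the family, EGF, NRG2 and NRG4 were tested, and ERBB4, NRG1 and NRG3 did not pass the filter. ERBB4, the other receptor for HBEGF, EREG and BTC, had 6 counts in all with MYDGF plus aristolochic acid, 0 with aristolochic acid and 9 in untreated cells. NRG1, an ERBB3 ligand, stayed at or below 0.644 CPM, and NRG3 was at 0 in every library. EGF itself ran from 3.60 to 4.06 CPM with MYDGF plus aristolochic acid, 5.67 to 10.5 CPM with aristolochic acid and 8.47 to 9.59 CPM in untreated cells, with a log2 fold change of -1.06 for MYDGF plus aristolochic acid over aristolochic acid (adjusted p = 0.00683) and -0.21 for aristolochic acid over untreated (adjusted p = 0.397). NRG2, a neuregulin that binds ERBB3 and ERBB4, ran from 11.3 to 14.1 CPM with MYDGF plus aristolochic acid, 5.72 to 6.64 CPM with aristolochic acid and 11.3 to 13.3 CPM in untreated cells. Like ERBB3, NRG2 fell with aristolochic acid against untreated (by 0.93 on the log2 scale, adjusted p = 0.000341) and was higher with MYDGF plus aristolochic acid than with aristolochic acid (0.97, adjusted p = 0.0018). NRG4, an ERBB4 ligand, fell by 2.01 with aristolochic acid against untreated (adjusted p = 0.000545).

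Of 15 genes of ligand shedding and its control, 14 were tested, and with aristolochic acid against untreated 3 rose and 8 fell, beside 29.7% and 29.3% of all genes, with a median log2 fold change of -0.25 against -0.012 over all genes. Those that fell included the metalloproteases ADAM19 (-1.83) and ADAM15 (-0.46) and FRMD8 (-0.43), which stabilises the ADAM17 complex, and those that rose were ADAM12 (0.93), ADAM8 (0.45) and RHBDF2 (0.24), an iRhom that carries ADAM17 to the surface. ADAM17, the main protease for HBEGF, AREG, EREG and TGFA, ran from 132 to 144 CPM with MYDGF plus aristolochic acid, 118 to 134 CPM with aristolochic acid and 149 to 157 CPM in untreated cells. ADAM10, the main protease for EGF and BTC, ran from 304 to 326, 289 to 343 and 399 to 421 CPM in the same order. Both fell with aristolochic acid against untreated, ADAM17 by 0.29 (adjusted p = 0.00494) and ADAM10 by 0.43 (adjusted p = 0.000743), and are named for their role after their values were seen. With MYDGF plus aristolochic acid over aristolochic acid, 3 of the 14 rose (ADAM15 by 0.62, the sheddase enhancer NRDC by 0.40 and RHBDF2 by 0.33) and 2 fell (ADAM8 by 0.34 and CD9 by 0.21), beside 14.7% of all genes in each direction, with a median of 0.048. The 3 that rose with aristolochic acid became 1 without untreated 3, and the 2 that fell between the toxin groups became 1 or 0 without any library but MYDGF plus aristolochic acid 3.

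Of 24 genes of receptor turnover and inhibition, 6 rose and 8 fell with aristolochic acid against untreated, shares near the 29.7% and 29.3% of all genes, with a median of -0.018. CBL, the ubiquitin ligase that marks active EGFR for degradation, rose by 0.63, while its relative CBLB fell by 1.10, LRIG1, a membrane inhibitor of the receptors, by 0.77 and the endocytic protein SH3GL2 by 1.29. Against aristolochic acid, MYDGF plus aristolochic acid gave 3 higher and 5 lower, beside 14.7% of all genes in each direction, among them CBLC (1.74) and SH3GL2 (1.09) higher and the phosphatases PTPN1 (-0.40) and PTPN2 (-0.40) lower. The 6 that rose became 3 without aristolochic acid 4 or untreated 1, and the 5 lower became 3 without MYDGF plus aristolochic acid 1 or 3 or aristolochic acid 4, and 2 without MYDGF plus aristolochic acid 4. Of 21 adaptors and genes of the RAS to ERK core, 2 rose and 9 fell with aristolochic acid against untreated, beside 29.7% and 29.3% of all genes (median -0.24), BRAF by 1.04 and PTPN11 by 0.54 upward and MAPK3, which encodes ERK1, by 1.38 downward. MAPK3 was higher with MYDGF plus aristolochic acid than with aristolochic acid (0.77), as were MAP2K1 (0.45) and MAP2K2 (0.38), the kinases that activate ERK, in a count of 3 higher and 3 lower, shares near the 14.7% of all genes in each direction. That count became 6 higher without aristolochic acid 1, and 0 and 1 lower without MYDGF plus aristolochic acid 3 and 4, while the 2 that rose over untreated became 4 without aristolochic acid 1. Of 14 genes of the PI3K, AKT, PLCG and STAT arm, 2 rose (PDPK1 by 0.86 and PRKCA by 0.82) and 5 fell (AKT1 by 0.61 and SRC by 0.58 among them) with aristolochic acid against untreated, beside 29.7% and 29.3% of all genes. With MYDGF plus aristolochic acid against aristolochic acid 2 rose and 4 fell, beside 14.7% in each direction. In that arm the 2 that rose over untreated became 1 without aristolochic acid 4 or 6 or untreated 1. Between the toxin groups the 2 higher became 1 without MYDGF plus aristolochic acid 1 or aristolochic acid 6 and 0 without MYDGF plus aristolochic acid 3 or 4 or aristolochic acid 4, and the 4 lower became 1 without MYDGF plus aristolochic acid 3 or aristolochic acid 6 and 2 without MYDGF plus aristolochic acid 4, aristolochic acid 4 or untreated 3.

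Genes known to respond to ERK were the list with the highest median with aristolochic acid over untreated: 12 of 17 rose, the other 5 did not pass the test, and the median was 0.63, beside 29.7% of all genes called higher. The list was drawn up with earlier results of these data known, so its count depends on which genes were placed in it. SPRY2, placed among receptor turnover and inhibitors, fell by 0.52 with aristolochic acid (edgeR adjusted p = 0.00135) and by 0.37 with MYDGF plus aristolochic acid, each against untreated. EGR1, an immediate early transcription factor, rose by 2.45 (adjusted p = 0.000131), the AP-1 subunit FOSL1 by 2.27 (adjusted p = 8.84e-06) and the feedback inhibitor SPRY4 by 1.74 (adjusted p = 2.19e-05). With MYDGF plus aristolochic acid over untreated 12 rose and 5 did not pass, beside 26.8% of all genes called higher, with a median of 0.69, led by FOSL1 (1.88), SPRY4 (1.63) and SPHK1 (1.22). Between MYDGF plus aristolochic acid and aristolochic acid the list split, with 3 higher and 4 lower, beside 14.7% of all genes in each direction, and a median of -0.16. SPHK1, a sphingosine kinase gene, was higher by 1.29 (adjusted p = 0.00162) and the ERK phosphatase gene DUSP4 by 0.88 (adjusted p = 0.00444), while EGR1 was lower by 1.31 (adjusted p = 0.0094) and CCND1, cyclin D1, by 0.61 (adjusted p = 0.000355).

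**Figure D4:**
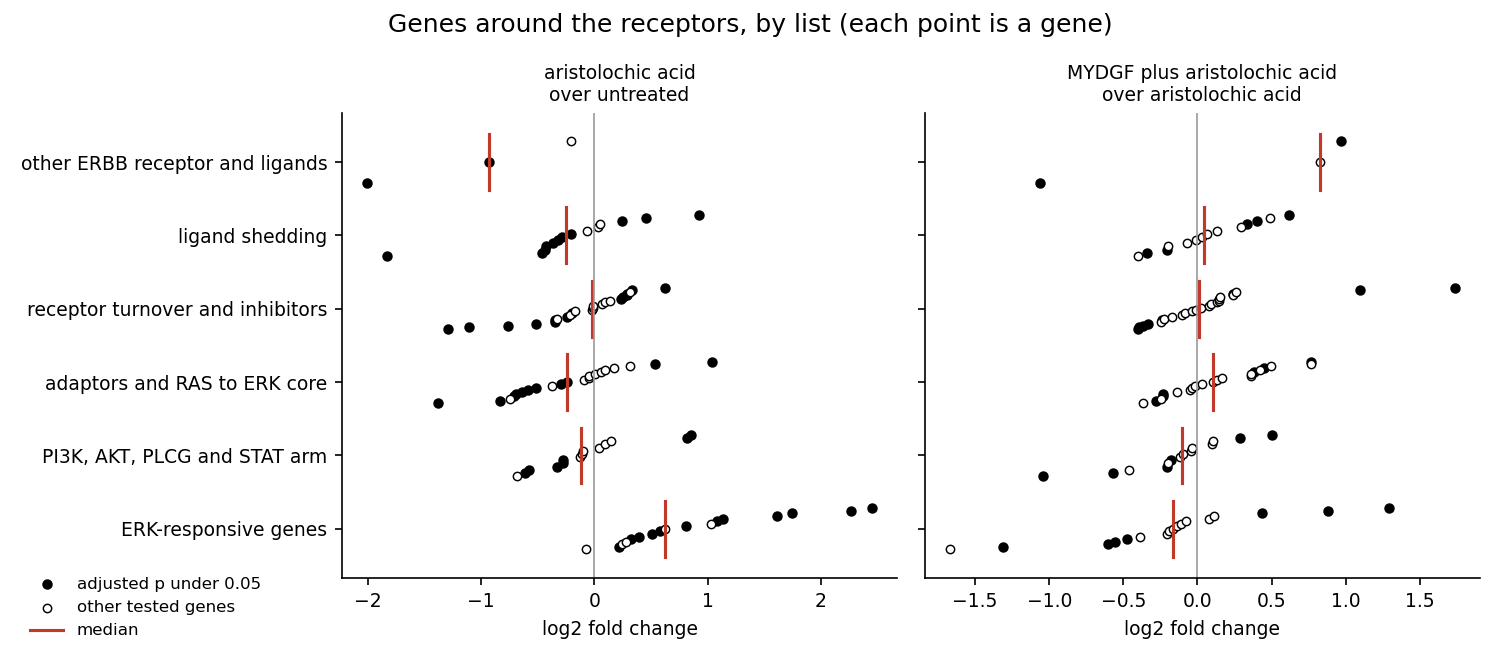
Log2 fold changes of the tested genes in 6 lists of the pathway around the receptors (points are genes, filled at an adjusted p under 0.05, with a line at the list median), for aristolochic acid over untreated on the left and MYDGF plus aristolochic acid over aristolochic acid on the right. The ERK-responsive genes have a median of 0.63 on the left and -0.16 on the right, and the ligand shedding genes -0.25 and 0.048.

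As a description of pattern, the protein-coding gene whose log2 CPM followed each member most closely over the 9 libraries was sought among 13704 genes by Pearson's r. The libraries form 3 groups, so these values mainly show which genes share the order of the groups. Many genes followed most members about as closely. Genes with r above 0.9 numbered 1496 for ERBB2, 1493 for HBEGF, 1313 for ERBB3 and 1142 for ERRFI1. They numbered 928 for TGFA, 686 for EREG, 654 for AREG, 290 for EGFR and 3 for BTC. ERBB2 was followed most closely by EIF2AK1 (r = 0.998), ERBB3 by TENT5A (r = 0.997), HBEGF by the splicing factor gene SF3B4 (r = 0.996) and ERRFI1 by the nucleolar gene NOP58 (r = 0.997). EREG was followed by SP6 (r = 0.990), AREG by the histone gene H4C14 (r = 0.991) and TGFA by MCAT (r = 0.985). DAP3, a mitochondrial ribosomal protein gene, was among the 3 nearest genes of both AREG and EREG. EGFR was followed by RSKR (r = 0.988) and BTC least closely of all, by UGGT1 (r = 0.912).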

How the data were processed

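RNA was measured in 9 HK-2 libraries, 3 a group. The authors deposited whole-number counts per gene, not normalized, and FPKM values beside them, per the file headers. CASAVA 1.8, HISAT2, SAMtools 1.3.1 and edgeR are named in the submitters' processing notes. Those notes list the build mm10, while the table lists human Ensembl IDs whose positions are read here as GRCh38. The strand setting, annotation release and counting tool were not given in the sources used here.

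Groups were tested on the counts in R 4.3.3 with edgeR 4.0.16: filterByExpr (minimum count 10, minimum total 15), TMM scaling, 1 factor with 3 groups over all 9 libraries and the quasi-likelihood test, with 6 residual degrees of freedom. The biological coefficient of variation was 16.4%. The Benjamini-Hochberg adjustment ran over the 18267 genes tested, with a threshold of 0.05, and the code was checked on simulated data. Ratios of counts were tested with the exact permutation test (scipy 1.17.1). Intervals cover counting error only. Deposited FPKM values served only to derive the authors' gene lengths. RefSeq promoters came from GRCh38.p14. No 2 libraries of a group agreed within sampling noise. Members, lists and markers were chosen with earlier results of these data known. The named genes are the members, MYDGF, cell type markers, genes overlapping or upstream of members, and genes nearest each member by r. List genes were drawn from up to 3 called in each direction in a list and comparison, and not all of these are printed. ADAM17, ADAM10, SPRY2, ERBB4, NRG1 and NRG3 were named outside this rule. Alternatives were other scalings (RLE, upper quartile), DESeq2 1.42.0, no filter, only the 6 libraries compared, a replicate block, and each library left out.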

Additional observations from a re-analysis of the deposited data

How the results depend on the processing

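Across 15 alternatives, 390 of 405 values (27 log2 fold changes of members) kept their direction and their side of the threshold. All 4 that changed sign concerned MYDGF plus aristolochic acid over aristolochic acid and were not called in any setting: ERBB2 became -0.018 with RLE scaling and -0.017 with DESeq2 and ran from -0.035 (without aristolochic acid 4) to 0.065 with 1 library left out, and ERRFI1 ran from -0.25 to 0.15 (without aristolochic acid 4). Without 1 library at a time, members called lower in that comparison ranged from 0 to 1 (HBEGF) and higher from 2 to 2, and all genes called higher from 1799 to 3152 and lower from 1678 to 3462. The titles' replicate numbers are only partly shared across groups. Same-numbered libraries did not deviate together (r from -0.16 to 0.018), but with 3 libraries a group this cannot show whether samples were paired. Untreated 2 and aristolochic acid 6 share their number with no other library, so a block by number leaves them no weight in the comparisons. A fit with the replicate number as a block, which leaves 2 residual degrees of freedom, called 2652 genes higher and 2410 lower for aristolochic acid over untreated, 8 and 6 for MYDGF plus aristolochic acid over aristolochic acid (0 members higher and 0 lower, and 2 and 0 at an unadjusted edgeR p under 0.05), and 2909 and 2537 for MYDGF plus aristolochic acid over untreated. With that block the log2 fold changes of TGFA (0.49, adjusted p = 0.0509) and ERRFI1 (0.87, adjusted p = 0.0528) over untreated with aristolochic acid, and of ERBB3 (0.64, adjusted p = 0.0768), EREG (0.37, adjusted p = 0.102) and HBEGF (-0.40, adjusted p = 0.21) with MYDGF plus aristolochic acid over aristolochic acid, missed the threshold. Of 540 list counts, 77 moved by over 1.5 times, 27 of them with the block. The cause of these changes was not tested. Depth limits EPGN, with 37 counts in all.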
